A study of Mus musculus with 9 samples.

Results

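The distal end of mouse chromosome 7 carries neighbouring clusters of imprinted genes, named after H19 and Igf2 and after Kcnq1ot1, and 10 genes of these clusters were followed here among the 24736 genes of the expression table. They were H19, Igf2, Cdkn1c, Phlda2, Kcnq1ot1, Kcnq1, Slc22a18, Ascl2, Cd81 and Tssc4, picked by symbol, and all 10 were found. RNA was sequenced from CEpiLCs, or caudal epiblast-like cells, which were grown from mouse embryonic stem (ES) cells as a culture model of the posterior embryo. The 3 groups of 3 biological replicates each were wild type (WT), cells mutant for Cdx1, Cdx2 and Cdx4 (CdxKO), and cells mutant for T, also called Bra (T/BraKO). All groups were cultured with bFGF at 10 ng per ml and 5 uM of LGK974, which inhibits Porcupine and so the release of WNT ligands, and after 2 days received the GSK3 inhibitor CHIR99021 until collection at 72 h. The value of H19 in CdxKO was known when these genes were picked, so for the picked genes every contrast that involves CdxKO is described without a p-value. Calls at the threshold in those contrasts are descriptions. The contrast of T/BraKO with WT is given with its test, but it shares the WT libraries and the fit with the CdxKO contrast. As the genes were chosen with earlier results of these data known, its p-values are descriptions too.

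In an imprinted cluster, genes are transcribed mainly from the maternal or mainly from the paternal chromosome. H19, a maternally expressed long non-coding RNA, and Igf2, a paternally expressed growth factor, share enhancers. A control region between them is bound by CTCF on the maternal chromosome. In the neighbouring cluster the paternal chromosome expresses Kcnq1ot1, an antisense RNA that starts inside Kcnq1 at a second control region, while the genes around it are expressed mainly from the maternal chromosome. These include Cdkn1c (the cyclin-dependent kinase inhibitor p57), Phlda2 (a restrainer of placental growth), Slc22a18 (a membrane transporter), Kcnq1 (a potassium channel) and, in trophoblast, Ascl2 (a transcription factor). Cd81 (a tetraspanin) and Tssc4 (a factor of spliceosome assembly) lie between Ascl2 and Kcnq1. Gene counts do not separate the parental chromosomes, so nothing below measures which allele was expressed.

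On GRCm38 chromosome 7 the genes ran in the order H19 (142575529 to 142578143), Igf2 (142650766 to 142666816), Ascl2 (142966829 to 142969264), Cd81 (143052739 to 143067934), Tssc4 (143069249 to 143071093), Kcnq1 (143106362 to 143427042), Cdkn1c (143458339 to 143461050), Slc22a18 (143473736 to 143499334) and Phlda2 (143501545 to 143503150). Kcnq1ot1 (143203458 to 143296549) lay within Kcnq1 on the opposite strand. The H19 and Igf2 start sites were 88.7 kb apart, and those of Cdkn1c, Slc22a18 and Phlda2 lay 165 kb, 177 kb and 207 kb from the Kcnq1ot1 start on the distal side. The H19 transcript is also the precursor of the microRNA miR-675, which gene counts of polyadenylated RNA do not measure. Its mature forms in RefSeq (GRCm38.p6, minus strand) lay at chr7:142577112-142577133 and chr7:142577078-142577099, inside H19, and are shown to identify the gene's small RNA product, with the seed (bases 2 to 8) in capitals. The seeds of the 5p and 3p forms differed from each other.
mmu-miR-675-5p: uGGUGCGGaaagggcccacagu
mmu-miR-675-3p: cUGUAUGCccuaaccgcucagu

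Promoter windows from RefSeq, of 250 bases before and 50 after each start, were found for 7 of the 10 genes, with 4 windows for Igf2 and none for H19, Cdkn1c and Kcnq1. The 250 bases upstream of the RefSeq start are shown for Kcnq1ot1, whose promoter lies in the control region, for Phlda2 and Slc22a18, whose RNA was lower in CdxKO, and for Tssc4, whose RNA stayed level. They are written 5′ to 3′ on the gene's strand with each CpG, the dinucleotide that carries DNA methylation, in capitals. The positions on GRCm38.p6 were chr7:143296548-143296797 (minus strand), chr7:143502525-143502774 (minus), chr7:143473539-143473788 (plus) and chr7:143069118-143069367 (plus), in that order. The gene coordinates given above are from GENCODE, whose starts differ from the RefSeq starts. By those coordinates the Phlda2 stretch lies inside the gene, and the Slc22a18 and Tssc4 stretches run past the gene start.
Kcnq1ot1: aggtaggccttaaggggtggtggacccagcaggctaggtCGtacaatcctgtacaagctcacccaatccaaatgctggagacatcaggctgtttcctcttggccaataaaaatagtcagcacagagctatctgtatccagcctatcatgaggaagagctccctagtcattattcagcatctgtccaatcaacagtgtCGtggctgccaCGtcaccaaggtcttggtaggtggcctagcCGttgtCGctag
Phlda2: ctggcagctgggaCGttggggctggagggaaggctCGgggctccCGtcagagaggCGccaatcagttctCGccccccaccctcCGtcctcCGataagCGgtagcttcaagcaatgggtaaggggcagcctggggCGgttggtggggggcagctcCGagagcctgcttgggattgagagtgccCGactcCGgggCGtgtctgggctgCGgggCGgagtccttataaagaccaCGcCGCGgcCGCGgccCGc
Slc22a18: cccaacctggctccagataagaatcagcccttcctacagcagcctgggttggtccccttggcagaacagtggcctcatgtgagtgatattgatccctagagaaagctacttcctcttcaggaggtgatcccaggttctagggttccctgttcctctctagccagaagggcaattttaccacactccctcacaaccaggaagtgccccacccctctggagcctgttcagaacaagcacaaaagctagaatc
Tssc4: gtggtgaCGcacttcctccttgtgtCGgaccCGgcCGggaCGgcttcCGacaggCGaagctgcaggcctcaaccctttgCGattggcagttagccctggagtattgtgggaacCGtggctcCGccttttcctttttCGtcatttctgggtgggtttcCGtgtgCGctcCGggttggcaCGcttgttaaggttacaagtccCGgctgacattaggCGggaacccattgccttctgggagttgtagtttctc

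The promoters differed in CpG content. The upstream stretch of Phlda2 held 21 CpGs and that of Tssc4 held 17, against 5 for Kcnq1ot1 and 0 for Slc22a18. Over the whole 300-base windows, Phlda2 held 26 CpGs, Tssc4, Cd81 and Ascl2 held 23 each, Kcnq1ot1 held 9 and Slc22a18 held 2, beside a median of 7 over all 32851 windows. Phlda2 and Slc22a18, which were both lower in CdxKO, thus lay on opposite sides of that median. The letters CCAAT, searched on both strands, occurred 3 times in the windows of Kcnq1ot1 and of Ascl2, and 3.37% of all windows held 3 or more copies. TTTATNG, the core letters of a CDX site, occurred once on either strand in the windows of Kcnq1ot1, Cd81 and 1 of the 4 of Igf2, and in 10.9% of all windows. AGGTGTGA, the letters of a T half-site, occurred in none of the 7 genes' windows and in 1.28% of all windows. A match of letters does not show that a factor bound there.

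The libraries held between 25124344 and 34705361 expected counts. A count of 3, taken as the floor of detection, corresponded to between 0.0864 and 0.119 CPM, a count scaled to library totals. Normalised counts are counts divided by the DESeq2 size factor of their library. The TPM scale (transcripts per total set to the same size in each library) also allow for transcript length and are used wherever genes are compared with each other. The targeted genes followed the labels: T averaged 12243 normalised counts in WT against 2295 in T/BraKO, and Cdx1, Cdx2 and Cdx4 were lower in CdxKO than in WT. Markers of the caudal epiblast were present in each group, with a summed level of 1200 to 1556 CPM in WT, 924 to 1612 CPM in CdxKO and 1167 to 1480 CPM in T/BraKO. Of these 9 markers DESeq2 called 0 higher and 2 lower in CdxKO against WT (Cdx2 and Wnt3a), beside 0.335% and 0.358% of all genes. In T/BraKO it called 1 higher (Fgf17) and 3 lower (T, Wnt3a and Fgf8), beside 0.148% and 0.937%. A DESeq2 fit that also held the replicate number (the block) called 1 higher and 4 lower in CdxKO, beside 3.40% and 1.91%. For T/BraKO that fit called 4 higher and 3 lower, beside 4.83% and 4.85%. Single markers thus differed between genotypes although the sums overlapped. Pou5f1 had the highest mean of these markers in each group (14747 normalised counts for WT, 17064 for CdxKO, 21352 for T/BraKO). It was called higher than in WT in both mutants, but only under the block. All lines derive from an XY line according to the study's methods, and no second line of any genotype is named. Ddx3y, Uty and Eif2s3y, which are Y-linked, had at most 3 counts in any CdxKO library and between 952 and 3070 in every other library. These 3 genes were also among the 5 closest to Cdkn1c in pattern over the 9 libraries (Ddx3y with r 0.991, Eif2s3y with 0.991, Uty with 0.985, Cdx4 with 0.985 and Phlda2 with 0.966). The r for Cdkn1c is a description added after the values were seen, and all 5 have their lowest values in the 3 CdxKO libraries. A difference between these lines and the effect of the mutation therefore cannot be told apart. In such bulk cultures, fewer cells of a type and less RNA per cell cannot be told apart either.

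H19 was the 1 gene of the 10 that was called higher in CdxKO. Its normalised counts were 33.8, 62.9 and 7.46 in WT replicates 1, 2 and 3, 414, 891 and 314 in CdxKO, and 44.1, 172 and 32.3 in T/BraKO. Every CdxKO library was above every WT and T/BraKO library, whereas the WT and T/BraKO libraries overlapped. The mean was 34.7 ± 27.7 in WT, against 540 ± 308 in CdxKO and 82.9 ± 77.6 in T/BraKO (SD, n = 3 each). The log2 fold change of CdxKO against WT was 3.96 with a standard error (SE) of 0.92, which is 15.6-fold. Libraries with the same replicate number gave ratios of 12.3, 14.2 and 42.1. Replicate 2 was the highest and replicate 3 the lowest library in each genotype. DESeq2 called H19 higher in CdxKO than in WT, but not without WT replicate 1 (3.94) or without CdxKO replicate 2 (3.39), and edgeR did not call it. Without WT replicate 2 the log2 fold change was 4.72.

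Igf2, the partner of H19, did not follow it between genotypes. Its normalised counts were 3526, 3682 and 2231 in WT, 2776, 4041 and 1953 in CdxKO and 2922, 2570 and 1693 in T/BraKO, and all 3 groups overlapped. The log2 fold change of CdxKO against WT was -0.11, with a 95% interval from -0.68 to 0.47. Within genotypes, the log2 deviations of H19 and Igf2 from their group means were correlated over the 9 libraries (r 0.742), which is a description without a test. In each library H19 was a minor share of the TPM of both genes together. That share was 1.43%, 2.46% and 0.473% in WT, 18.1%, 24.4% and 18.9% in CdxKO, and 2.03%, 8.63% and 2.62% in T/BraKO. The share was higher in each CdxKO library than in any other library, and it varied less between the CdxKO libraries than the H19 level did.

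**Figure D1:**
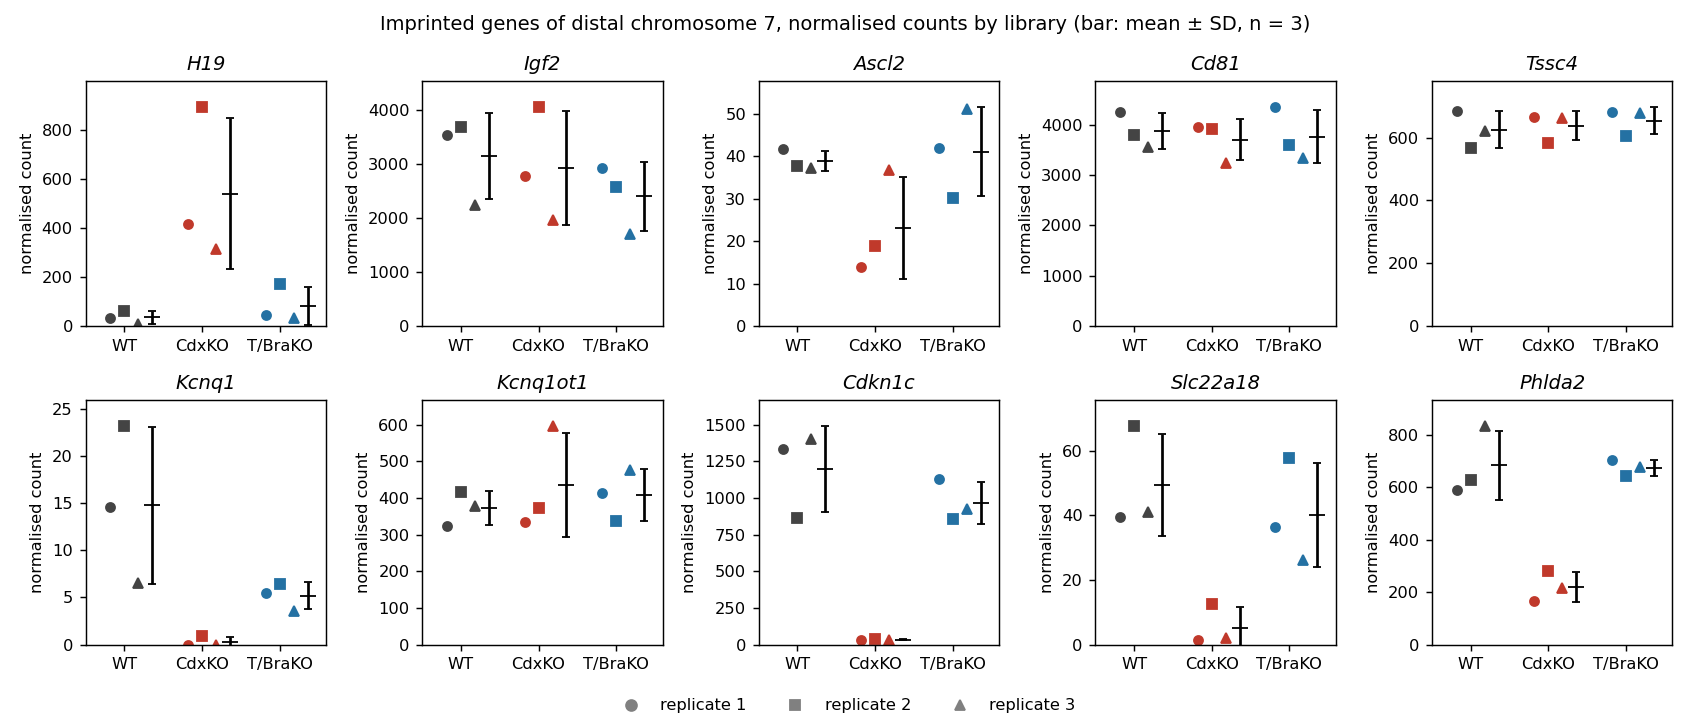
Normalised counts (y axes, starting at 0) of the 10 genes in each library, by genotype (x axes) and in chromosomal order. Symbols mark the replicate number and bars the mean ± SD of 3 libraries. The CdxKO libraries of H19 sit between 314 and 891, above all others, and those of Cdkn1c sit between 29.2 and 37.5, below all others.

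**Figure D2:**
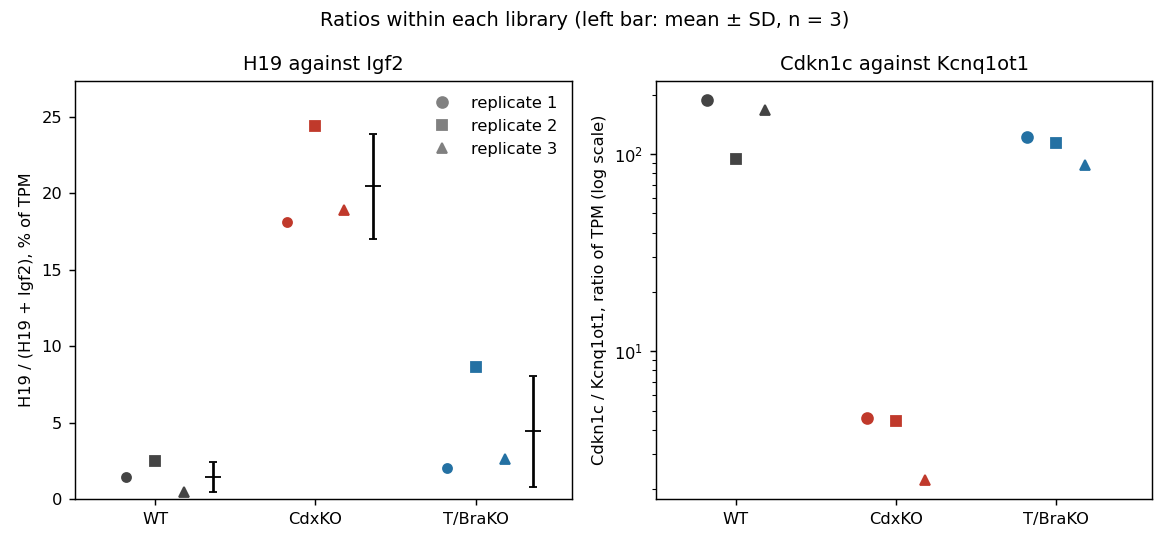
Ratios of TPM within each library by genotype, with H19 as a percentage of H19 plus Igf2 on the left (bars are mean ± SD of 3 libraries) and Cdkn1c over Kcnq1ot1 on the right (log axis). In CdxKO the H19 share lies between 18.1% and 24.4% and the Cdkn1c ratio between 2.22 and 4.57.

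Cdkn1c, the inhibitor of the cell cycle, differed from WT in the opposite direction to H19. Its normalised counts were 1333, 862 and 1399 in WT, 33.9, 37.5 and 29.2 in CdxKO and 1128, 854 and 921 in T/BraKO. The CdxKO libraries lay far below the other 6, which overlapped. The log2 fold change of CdxKO against WT was -5.16 (SE 0.25), a 35.7-fold lower level, and against T/BraKO it was -4.85 (SE 0.25). Pairs of libraries with the same number were 39.4-fold, 23.0-fold and 48.0-fold lower in CdxKO than in WT. DESeq2 and edgeR both called Cdkn1c lower than in WT, and leaving out any library gave log2 fold changes between -5.35 and -5.03.

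Phlda2, at the far end of the cluster, was lower by a smaller factor. It had 590, 628 and 833 normalised counts in WT, 164, 280 and 215 in CdxKO and 702, 641 and 677 in T/BraKO. Again the CdxKO libraries did not overlap with the others, while WT and T/BraKO did. The log2 fold change was -1.63 (SE 0.21) against WT and -1.61 (SE 0.21) against T/BraKO, which is 3.10-fold and 3.05-fold lower. The levels of Cdkn1c and Phlda2 therefore parted in CdxKO. The ratio of Cdkn1c to Phlda2 in TPM was 0.816, 0.495 and 0.607 in WT and 0.580, 0.480 and 0.490 in T/BraKO, but 0.0746, 0.0473 and 0.0490 in CdxKO.

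Slc22a18, which lies between Cdkn1c and Phlda2, was expressed at a low level. It had 39.4, 67.7 and 41.0 normalised counts in WT, 1.25, 12.5 and 1.88 in CdxKO and 36.4, 57.7 and 26.0 in T/BraKO. The CdxKO libraries again lay below the rest, with replicate 2 the highest library in each genotype. The log2 fold change was -3.18 (SE 0.68) against WT, a 9.08-fold lower level, and -2.88 (SE 0.68) against T/BraKO. Without CdxKO replicate 2 these values became -4.94 and -4.64, and edgeR called neither.

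Kcnq1 had few counts in each group and was under the floor of 3 counts in all CdxKO libraries. Its counts were 13, 24 and 7 in WT, 0, 1 and 0 in CdxKO, and 5, 7 and 4 in T/BraKO. The summed counts of 44 in WT and 1 in CdxKO gave a ratio of 43.8 after size factors, with a 95% Clopper-Pearson counting interval from 7.46 to 1768. For T/BraKO, with 16 counts, the ratio to CdxKO was 15.3 (2.38 to 642). The model's log2 fold change of -5.34 against WT was called by DESeq2, but received no adjusted p in the fit under the replicate block. The call was lost on leaving out WT replicate 1 or 2 or CdxKO replicate 1 or 3 (-5.35, -4.85, -5.01 and -4.83).

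Kcnq1ot1 itself, the RNA around which these genes are grouped, stayed level. It had 324, 417 and 378 normalised counts in WT, 335, 373 and 597 in CdxKO and 413, 336 and 477 in T/BraKO, so the groups overlapped. Its log2 fold change of CdxKO against WT was 0.22 (SE 0.24), with a 95% interval from -0.25 to 0.70. The ratio of Cdkn1c to Kcnq1ot1 in TPM was 188, 94.5 and 168 in WT, 122, 114 and 88.4 in T/BraKO, and 4.57, 4.41 and 2.22 in CdxKO. The change in this ratio thus came with a change in Cdkn1c and not with a detected change in Kcnq1ot1.

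The genes on the other side of Kcnq1 moved less. Ascl2 had 41.6, 37.7 and 37.3 normalised counts in WT, 13.8, 18.8 and 36.7 in CdxKO and 41.9, 30.2 and 51.1 in T/BraKO. Each CdxKO library was below each WT library, CdxKO replicate 3 by a small margin, and the log2 fold change of -0.74 (SE 0.42) was not called. Without CdxKO replicate 3 it was -1.24. Cd81 had 4254, 3800 and 3563 normalised counts in WT, 3960, 3905 and 3240 in CdxKO and 4345, 3599 and 3344 in T/BraKO. Tssc4 had 686, 569 and 622 in WT, 667, 584 and 664 in CdxKO and 681, 605 and 677 in T/BraKO. Both were level across the genotypes, with 95% intervals for CdxKO against WT from -0.34 to 0.21 for Cd81 and from -0.21 to 0.26 for Tssc4 on the log2 scale.

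Of the 10 genes, DESeq2 called 1 higher (H19) and 4 lower (Cdkn1c, Phlda2, Kcnq1 and Slc22a18) in CdxKO than in WT at an adjusted p of at most 0.05. Over all 16737 genes tested it called 0.335% higher and 0.358% lower. Under the replicate block 1 was higher and 3 lower, Kcnq1 being the gene lost, beside 3.40% and 1.91% of all genes. By edgeR 0 were higher and 2 lower (Cdkn1c and Phlda2), beside 0.0344% and 0.0756%. The median log2 fold change was -0.42 over the 10 genes and 0.00 over all genes tested. All 3 CdxKO libraries lay above all 3 WT libraries for 1 gene and below them for 5, beside 5.26% and 4.58% of all genes. As the genes were picked with the H19 value in view, these counts are descriptions. The 4 lower genes spanned the region from Kcnq1 to Phlda2, and the next gene beyond Phlda2, Nap1l4, averaged 5279 normalised counts in the WT libraries and 5296 in the CdxKO libraries.

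**Figure D3:**
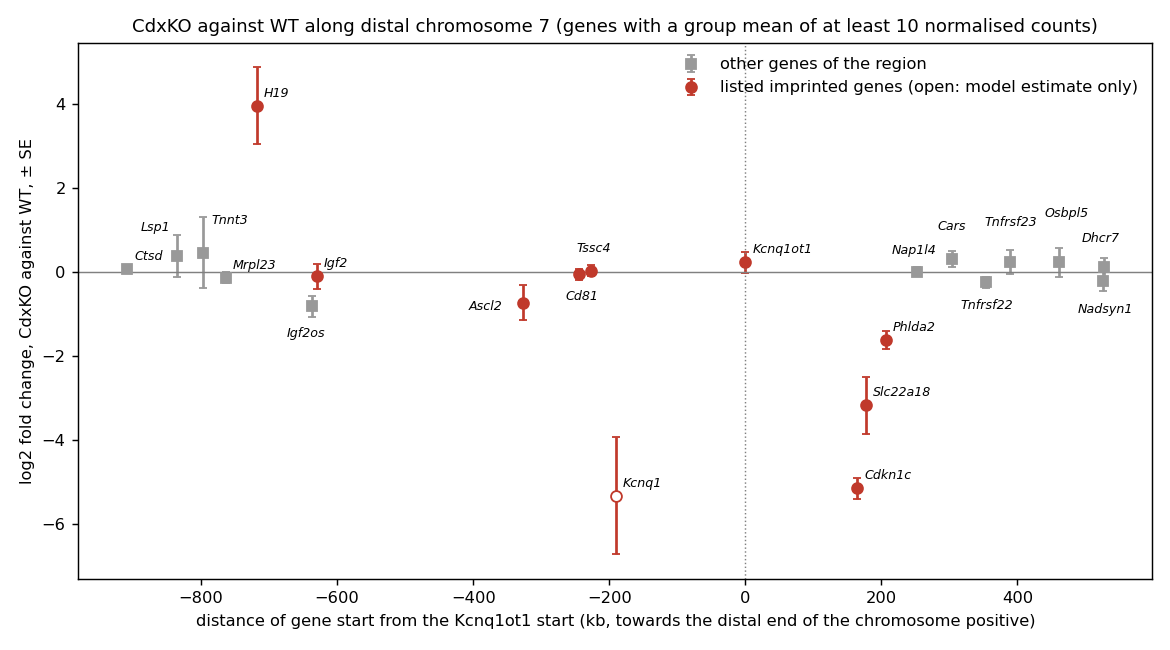
Log2 fold change of CdxKO against WT (y axis, ± SE) against the distance of each gene's start from the Kcnq1ot1 start (x axis, kb) for the 10 genes (red) and other genes of the region (grey) with a group mean of at least 10 normalised counts. H19 stands at 3.96 and Cdkn1c at -5.16, while the grey genes stay between -0.82 and 0.45. The open point of Kcnq1 is a model estimate from 1 count in CdxKO.

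Levels per length gave a fuller view of which of these RNAs dominated. In WT, Cd81 was the highest of the 10 with 187 ± 18.9 TPM, followed by Phlda2 (71.6 ± 12.5), Igf2 (67.2 ± 16.5), Cdkn1c (45.3 ± 10.6) and Tssc4 (34.9 ± 3.67). The ranges of Phlda2 and Igf2, of Igf2 and Cdkn1c, and of Cdkn1c and Tssc4 overlapped across libraries. Within a library, Phlda2 was above Igf2 in 1 of 3, Igf2 above Cdkn1c in 2 of 3 and Cdkn1c above Tssc4 in 3 of 3. The other genes were at least an order lower, namely Slc22a18 (2.36 ± 0.768), Ascl2 (1.76 ± 0.122), H19 (1.10 ± 0.885), Kcnq1 (0.35 ± 0.20) and Kcnq1ot1 (0.31 ± 0.040). In CdxKO the order changed: H19 (17.0 ± 9.95 TPM) came next after Phlda2 (23.1 ± 6.36), with ranges that overlapped and Phlda2 the higher in 3 of 3 libraries. Cdkn1c (1.26 ± 0.161 TPM in CdxKO) came next before Ascl2 (1.04 ± 0.528), with ranges that overlapped and Cdkn1c the higher in 2 of 3 libraries.

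In T/BraKO the region was compared with WT to ask about T, the other factor mutated in the study. DESeq2 called none of the 10 genes in T/BraKO, beside 0.148% of all genes called higher and 0.937% called lower. A count of 0 among 10 genes is near these shares. The log2 fold changes were 1.26 (SE 0.92) for H19, -0.39 for Igf2, -0.31 for Cdkn1c, -0.02 for Phlda2 and 0.13 for Kcnq1ot1, with a DESeq2 adjusted p of 1 for each. For Cdkn1c the 95% interval from -0.72 to 0.10 did not reach the CdxKO value of -5.16. Kcnq1 was lower in each T/BraKO library than in any WT library by normalised counts, narrowly so against WT replicate 3, with a log2 fold change of -1.52 (SE 0.83) that was not called. It was 1 of 10 genes with no overlap in that direction, and 0 had none in the other, beside 5.54% of all genes lower and 3.69% higher.

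When the DESeq2 fit held the replicate number as a block, H19 was called higher and Igf2 lower in T/BraKO. The blocked log2 fold changes were 1.22 for H19 (adjusted p 0.0480) and -0.39 for Igf2 (adjusted p 0.00199), beside 4.83% of all genes called higher and 4.85% called lower by that fit. For Igf2 each T/BraKO library was lower than the WT library of the same number, by 1.21-fold, 1.43-fold and 1.32-fold. For H19 each was higher, by 1.31-fold, 2.74-fold and 4.33-fold. Without T/BraKO replicate 2, and without the block, the H19 log2 fold change was 0.14.

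**Figure D4:**
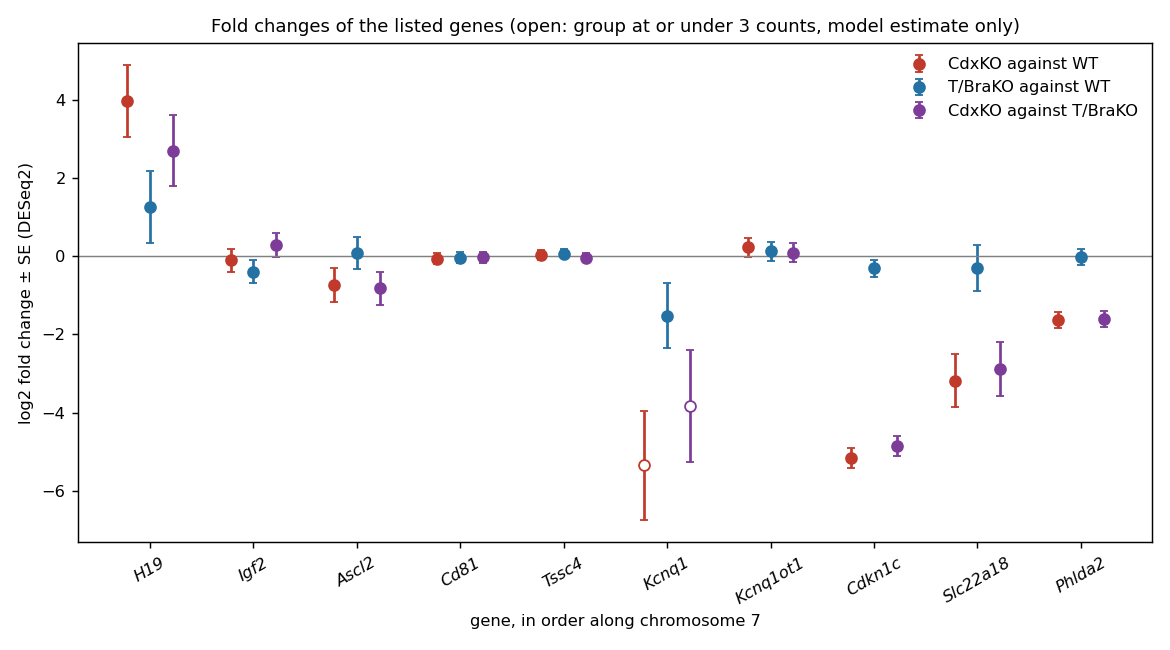
Log2 fold changes (y axis, ± SE, DESeq2) of the 10 genes in chromosomal order (x axis) in the 3 comparisons, which share libraries. Red and purple points, the comparisons with CdxKO, lie near each other for Cdkn1c (-5.16 and -4.85) and Phlda2 (-1.63 and -1.61), while the blue points of T/BraKO against WT lie near 0 for both. Open points are model estimates for Kcnq1.

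The mutants were then set against each other directly, a comparison that shares its libraries with the others. DESeq2 called 0 of the 10 genes higher and 3 lower (Cdkn1c, Phlda2 and Slc22a18) in CdxKO than in T/BraKO, and 2.52% of all genes higher and 0.962% lower. By edgeR 0 were higher and 2 lower (Cdkn1c and Phlda2), beside 1.24% and 0.385% of all genes. All 3 CdxKO libraries lay above all 3 T/BraKO libraries for 1 gene and below them for 4, beside 8.17% and 6.92% of all genes. The log2 fold change of H19 was 2.70 (SE 0.91), and every CdxKO library was above every T/BraKO library. Without T/BraKO replicate 2 it was 3.82. With the replicate block, H19 (2.95) and Igf2 (0.27) were called higher and Kcnq1 was called lower in addition, beside 7.75% and 6.90% of all genes.

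Other genes along the region served as a comparison. Of 20 further genes between Ctsd and Dhcr7, 17 had an adjusted p for CdxKO against WT, and DESeq2 called 0 there and 0 in T/BraKO against WT. The shares of all genes called were 0.335% higher and 0.358% lower in CdxKO, and 0.148% and 0.937% in T/BraKO. A count of 0 is near these shares for a list of 20 genes. Under the block 1 of them, the cysteinyl-tRNA synthetase gene Cars, was called higher in CdxKO (log2 fold change 0.30, DESeq2 adjusted p 3.95e-04), beside 3.40% of all genes. In the direct comparison Igf2os, an RNA transcribed antisense to Igf2, was lower in CdxKO (log2 fold change -0.85, DESeq2 adjusted p 0.0226). It was the 1 gene of the 20 called there, beside 2.52% of all genes higher and 0.962% lower. Igf2os had 94.5, 80.3 and 76.4 normalised counts in WT, 46.4, 49.1 and 46.1 in CdxKO and 89.4, 97.1 and 69.1 in T/BraKO. Its CdxKO libraries lay below all others, but the contrast with WT (-0.82) had a DESeq2 adjusted p of 0.114. Of the 20 genes, 2 (Igf2os and Tnfrsf22) had all CdxKO libraries below all WT libraries and 0 had them above, beside 4.58% and 5.26% of all genes. Syt8, Nctc1 and Ins2 had no count in any library.

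Among genes of the IGF pathway, through which the Igf2 product acts, DESeq2 without the block called the receptor Igf2r in CdxKO against WT and Igfbp3 and Pappa in T/BraKO against WT, and with the block it called more. Of 15 listed genes, it called 0 higher and 1 lower in CdxKO than in WT, beside 0.335% and 0.358% of all genes. Under the block it called 0 higher and 3 lower, beside 3.40% and 1.91%. The 1 gene called without the block was Igf2r, the receptor that clears IGF2. For it the WT libraries held 7780, 8313 and 6138 normalised counts and the CdxKO libraries 3558, 4809 and 3318. Its log2 fold change was -0.93 (SE 0.18), with a DESeq2 adjusted p of 1.88e-04. Igf2r was also lower in CdxKO than in T/BraKO (-0.63, adjusted p 0.0201). In T/BraKO against WT it was called lower under the block (-0.29, DESeq2 adjusted p 0.00133) and not otherwise (-0.30, adjusted p 1). Igf1r, the signalling receptor, had a log2 fold change of -0.34 in CdxKO, with a DESeq2 adjusted p of 1. Under the block it was called, with -0.31 and an adjusted p of 0.00206, as was Igf2bp2, which encodes an RNA-binding protein (-0.32, DESeq2 adjusted p 9.50e-05).

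In T/BraKO against WT, 0 of the 15 IGF genes were called higher and 2 lower, beside 0.148% and 0.937% of all genes. Under the block 0 were called higher and 5 lower, beside 4.83% and 4.85%. Igfbp3, a binding protein that carries IGFs, had 10265 ± 954 normalised counts in WT and 1209 ± 355 in T/BraKO (SD, n = 3; log2 fold change -3.09, DESeq2 adjusted p 8.67e-29). Pappa, a protease that cleaves IGF-binding proteins, had a log2 fold change of -0.88 (DESeq2 adjusted p 0.0158). The block added Igf2r, the binding protein Igfbp4 (-0.50, DESeq2 adjusted p 8.07e-06) and Igf2bp3, another RNA-binding protein gene (-0.18, adjusted p 0.0268). Between the mutants, Igfbp3 (3.37) and Pappa (0.81) were higher in CdxKO, and Igf2bp2 (-0.44, DESeq2 adjusted p 0.0243) was lower beside Igf2r. These 2 higher and 2 lower calls became 4 higher and 3 lower under the block, with Irs1, a docking protein of the insulin and IGF receptors (0.30), and Igfbp4 (0.44) higher and Igf1r (-0.26) lower. Over all genes 2.52% were called higher and 0.962% lower between the mutants, and 7.75% and 6.90% under the block. Of 11 listed factors that act at imprinting control regions, DESeq2 called 0 in each of the 3 comparisons. In CdxKO against WT it called 0.335% of all genes higher and 0.358% lower. The shares for the other contrasts are given above, and a count of 0 among 11 genes is near them all. With the block it called 1 lower in CdxKO than in WT, namely Zfp445 (log2 fold change -0.18, DESeq2 adjusted p 0.0293), beside 1.91% of all genes. Against T/BraKO the blocked fit called 2 lower, beside 6.90% of all genes, namely Zfp445 (-0.17, DESeq2 adjusted p 0.0262) and Uhrf1 (-0.20, adjusted p 0.00209). Every CdxKO library lay below every WT and T/BraKO library for Zfp445 and also for Dnmt1. Of the 11 factors, 2 had all CdxKO libraries below all WT libraries and 0 had them above, beside 4.58% and 5.26% of all genes. Against T/BraKO 3 lay wholly below and 0 above, beside 6.92% and 8.17%. The WT libraries held 5434 ± 580 normalised counts of Ctcf (mean ± SD, n = 3), the CdxKO libraries 5187 ± 314 and the T/BraKO libraries 5582 ± 259.

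Markers of other cell types were read beside these values, since ES cells had been maintained on feeder fibroblasts, which according to the study's methods were depleted before differentiation by their attachment to plastic. The summed level of 12 fibroblast markers was 60.2 to 115 CPM in WT, 90.2 to 179 CPM in CdxKO and 50.1 to 84.1 CPM in T/BraKO, so its median was highest in the group with most H19, while the ranges of CdxKO and WT overlapped. The CdxKO sum was above that of the same-numbered WT library in 3 of 3 pairs and above that of the same-numbered T/BraKO library in 3 of 3. DESeq2 called 0 of the 12 in CdxKO against WT, and with the block it called Col1a1 and Col1a2 higher and Thy1 lower. In CdxKO against T/BraKO, DESeq2 without the block called 3 higher, namely the matrix genes Col1a1 (1.91, DESeq2 adjusted p 2.32e-05), Col1a2 (1.26, adjusted p 0.0267) and Postn (3.89, adjusted p 1.36e-05), and 1 lower, the surface marker Thy1 (-1.20, adjusted p 2.00e-05). In T/BraKO against WT it called 0 higher and 1 lower (Postn), and 3 lower under the block. The shares of all genes called are those given above for each contrast and fit. The sums of 6 markers of lateral and extraembryonic mesoderm were 22.4 to 33.0 CPM in WT, 28.5 to 32.8 CPM in CdxKO and 12.0 to 21.2 CPM in T/BraKO. The sums of 10 trophoblast markers were at most 4.08 CPM in any library, with Prl3d1 and Tpbpa at 0 in all groups. Those of 11 extraembryonic endoderm markers were 16.1 to 22.6 CPM in WT, 15.7 to 21.4 CPM in CdxKO and 16.5 to 17.2 CPM in T/BraKO, with Ttr at 0 in both mutants. The part of these cell types in the level of H19 or of any other of the 10 genes was not tested.

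The genes whose log2 normalised counts followed H19 most closely over the 9 libraries, among 12315 genes with a mean of at least 50 normalised counts, were Sertad2, Plpp1, Rin1, Mir22hg and Tmcc3, with Pearson's r from 0.932 to 0.950. For Igf2 they were Wdr35, Ercc5, Col4a5, Ikzf2 and Tnks, with r from 0.973 to 0.982. The lists shared no gene. These values describe 9 libraries that share genotype and replicate series, and carry no test.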

How the data were processed

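Polyadenylated RNA was sequenced as 76-base single-end, strand-specific reads. The submitters' processing notes and the study's methods name cutadapt 1.16, STAR 2.5.2a and RSEM 1.3.0, with RefSeq genes on mm10 and strand-specific counting. The authors deposited expected counts and TPM per gene, 1 column per library. For this report the expected counts were rounded to integers and fitted in DESeq2 1.42.0 (R 4.3.3), with genotype as the only term over all 9 libraries, Wald tests, Benjamini-Hochberg adjustment over all genes and a threshold of 0.05. TPM values were used as deposited by the authors.

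The edgeR 4.0.16 quasi-likelihood test, TMM factors, a filter of 10 counts in at least 3 libraries, fits to the 6 libraries compared, the replicate block and leaving out each library were alternatives. The scripts were tested on simulated counts. The members and all gene lists were chosen with earlier results of these data known. Named genes are the 10 members, the targeted genes, Igf1r, Igf2r, Ctcf, up to 5 called genes of each list of neighbours, IGF genes and control-region factors, and the 5 closest patterns of H19 and Igf2. Other genes named were chosen after their values were seen.

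Replicate numbers are from the titles. Deviations from the group means correlated between all 9 pairs of same-numbered libraries (mean r 0.703, from 0.532 to 0.814, over 12316 genes), so the numbers were taken to pair libraries. The 9 pairs of libraries within a genotype differed by more than sampling noise. The Kcnq1 counting intervals and the floors cover counting error only. The 95% intervals of log2 fold changes come from the DESeq2 standard error of the fit without the block. They and the p-values of that fit measure the spread between cultures of a genotype, which includes differences between replicate series. The p-values under the block measure the spread left once those differences are taken out. Coordinates are from GENCODE M21 on GRCm38.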

Additional observations from a re-analysis of the deposited data

Results flagged for a closer look

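For 3 of the 10 genes the change from WT was not the same in CdxKO as in T/BraKO, by the direct contrast of these mutants in the DESeq2 fit. The log2 fold changes of CdxKO against T/BraKO were -4.85 for Cdkn1c, -2.88 for Slc22a18 and -1.61 for Phlda2. Their values against WT were -5.16, -3.18 and -1.63 for CdxKO and -0.31, -0.30 and -0.02 for T/BraKO. Of the 3, edgeR did not call Slc22a18. The CdxKO values were in the same fit as the H19 value that was known when the genes were picked, so they are given without a p-value.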

How the results depend on the processing

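TMM factors and the filter on low counts changed no call among the 10 genes (Kcnq1 did not pass that filter or the filter used with edgeR and has no value there). For CdxKO against WT, DESeq2 called 56 genes of the whole table higher and 60 lower. These counts became 471 and 265 under the replicate block, 5 and 11 by edgeR, and 411 and 252 by edgeR under the replicate block, an alternative added once the data had been seen. Leaving out 1 library gave 20 to 76 higher (lowest without CdxKO replicate 1) and 33 to 64 lower (lowest without WT replicate 1). For T/BraKO against WT the counts of 28 and 177 became 617 and 620, 7 and 49, and 625 and 757 under the same settings, and 15 to 29 and 103 to 186 without 1 library (both lowest without WT replicate 1). For CdxKO against T/BraKO the counts of 404 and 154 became 1157 and 1030, 181 and 56, and 1484 and 1240, and 257 to 474 (lowest without CdxKO replicate 1) and 96 to 156 (lowest without T/BraKO replicate 1).

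Of the 10 genes, edgeR called 0 higher and 2 lower in CdxKO against WT. In T/BraKO against WT the replicate block, with DESeq2 or edgeR, called 1 higher and 1 lower. In CdxKO against T/BraKO the count of higher genes moved from 0 to 2 with the replicate block, to 1 with edgeR and the block, and to 1 in the fit to the 6 libraries compared. Leaving out 1 library gave 0 to 1 higher in CdxKO against WT and 0 to 1 in CdxKO against T/BraKO, where H19 was called without WT replicate 3 or T/BraKO replicate 2. The cause of these moves was not tested. The paired fit changed no other call among the 10 genes beside those given in the results.

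Some genes with no call changed sign on leaving out 1 library. Their log2 fold changes for CdxKO against WT ranged from -0.41 to 0.12 for Igf2, -0.074 to 0.38 for Kcnq1ot1, -0.12 to 0.022 for Cd81 and -0.035 to 0.10 for Tssc4. For T/BraKO against WT they ranged from -0.12 to 0.14 for Phlda2, -0.11 to 0.26 for Ascl2 and -0.16 to 0.035 for Cd81. For CdxKO against T/BraKO they ranged from -0.017 to 0.51 for Igf2, -0.21 to 0.25 for Kcnq1ot1, -0.10 to 0.092 for Cd81 and -0.089 to 0.027 for Tssc4. Depth limits Kcnq1 in CdxKO, with at most 1 count in a library, and Slc22a18 in CdxKO, with 1, 14 and 2 counts.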

Other observations

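Among the markers of lateral and extraembryonic mesoderm, Hand1, a transcription factor of that tissue, was higher in CdxKO than in WT, at 194 ± 27.0 against 35.6 ± 10.3 normalised counts (SD, n = 3; log2 fold change 2.44, DESeq2 adjusted p 2.58e-14). Of 6 such markers, DESeq2 called 1 higher and 0 lower in that comparison, beside 0.335% and 0.358% of all genes. The median log2 fold change was 0.52. Under the block 2 were called higher and 0 lower there, beside 3.40% and 1.91%. In T/BraKO against WT the blocked fit called 0 higher and 2 lower, beside 4.83% and 4.85%. Kdr, of the same list, lay the other way from Hand1, with a mean of 413 normalised counts in CdxKO against 580 in WT. Bmp4, a growth factor, was higher in CdxKO than in T/BraKO (log2 fold change 1.11, DESeq2 adjusted p 0.00838). Among the fibroblast markers, the matrix gene Postn fell in T/BraKO (log2 fold change -2.58, DESeq2 adjusted p 0.0491), from 14.9 to 50.3 normalised counts in WT libraries to at most 5.52 in T/BraKO libraries. It was the 1 call among 12 such markers, beside 0.148% of all genes called higher and 0.937% called lower. The median log2 fold change of the 12 was -0.08. Thy1 lay the other way (0.46, DESeq2 adjusted p 0.912). Its T/BraKO libraries, from 521.1 normalised counts, lay only narrowly above its WT libraries, at most 520.4. Of the 12 markers 1 lay wholly higher and 1 wholly lower, beside 3.69% and 5.54% of all genes. These genes were chosen after their values were seen.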
